A study of Homo sapiens with 40 samples.

Results

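The mRNAs of 4 DEAD-box RNA helicases, EIF4A1, EIF4A2, EIF4A3 and DDX6, were followed through all 40 libraries of an RNA-Seq study of HEK293 cells. They were chosen by gene symbol, as the mRNAs of the 3 immunoprecipitated proteins plus the remaining eIF4A family member, and make up 4 of the 55765 counted symbols. The study set RNA recovered with antibodies against endogenous eIF4A1, eIF4A2 or DDX6 (IP) beside total RNA from HEK293 cells without siRNA, with 3 libraries per group. In a second experiment HEK293 cells received control siRNA or CNOT1 siRNA, and each treatment gave 4 libraries of input RNA, 4 of subpolysomal RNA (sucrose gradient fractions 1 to 5) and 4 of polysomal RNA (fractions 6 to 11). In the last experiment, HEK293 cells were given control siRNA or a knockdown of both TNRC6A and TNRC6B, and total RNA was sequenced in 2 libraries each. HEK293 is an established human embryonic kidney cell line, and a library from a control antibody was not analysed here, so recovery in an IP is always relative to total RNA.

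DEAD-box proteins are ATP-dependent RNA helicases that open RNA structure or clamp onto RNA. eIF4A1 and eIF4A2 are close paralogs, and both have been reported as the helicase of eIF4F, the cap-binding complex of translation initiation. EIF4A3 encodes the clamp of the exon junction complex, which marks spliced mRNAs. DDX6 encodes a helicase of P-bodies that acts in translational repression and decapping and binds CNOT1, the scaffold of the Ccr4-Not deadenylase complex. The TNRC6 proteins link Argonaute to that complex. The study reports that eIF4A2 associates only weakly with eIF4G, the scaffold of eIF4F, and that it interacts with CNOT1.

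How far the paralogs can be told apart by a short read depends on their sequence. At the nucleotide level the mRNAs diverged even around the codons of the Asp-Glu-Ala-Asp motif that names the family, as 30-base stretches of the 4 coding sequences show. They were read from GRCh37 and the GENCODE 44 annotation lifted to it, and capitals mark bases that differ from EIF4A1.
EIF4A1: tttgtactggatgaagctgacgaaatgtta
EIF4A2: tttgtTTtggatgaagcAgaTgaaatgttG
EIF4A3: ttGgtTTtggatgaagctgaTgaaatgttG
DDX6: AtAgtaTtggatgaGgcAgaTAaGTtgCtG
These stretches lie in exons at chr17:7480394-7480423 (plus strand), chr3:186503973-186504002 (plus strand) and chr17:78113476-78113505 (minus strand), and the DDX6 stretch joins 2 exons between chr11:118630739-118633935 (minus strand). EIF4A2 and EIF4A3 each differed from EIF4A1 at 5 of the 30 bases and DDX6 at 11. Over the aligned coding sequences EIF4A1 and EIF4A2 were 76.6% identical, although their proteins were 90.1% identical. EIF4A1 and EIF4A3 proteins were 66.9% identical, and DDX6 shared 35.7 to 38.2% of residues with the eIF4A proteins.

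No stretch of 75 bases from the reference mRNA of a member occurred in the mRNA of another member. Exact copies elsewhere in the genome were found for 277 of 1684 such stretches of EIF4A1 (16.4%), against 90 of 1812 for EIF4A2 (4.97%), 47 of 2450 for EIF4A3 (1.92%) and 21 of 6054 for DDX6 (0.347%). The pseudogene rows of the count files took few reads, and the highest single count among them was 15, in EIF4A2P3. The length was set after the 75-cycle sequencing named in the study's methods.

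The EIF4A1 gene (GRCh37 chr17:7476142-7482324, plus strand) stood apart by its annotation. All 1758 bases (100%) of its reference mRNA, in 11 exons, were also exonic in another gene on the same strand. The readthrough gene SENP3-EIF4A1 covered 1467 of them (83.4%), and a long non-coding RNA gene without a symbol covered 1757 (99.9%). EIF4A1 exon sequence shared with no gene came to 2733 bases, all of it outside the exons of the reference mRNA. By contrast, EIF4A2 (chr3:186500994-186507686, plus strand), EIF4A3 (chr17:78108168-78120950, minus strand) and DDX6 (chr11:118618472-118661873, minus strand) shared 0 bases of their reference mRNAs with a gene on the same strand. The annotation, strand option and overlap rule that the authors used for counting are not given in the sources used here, and the part of this overlap in the EIF4A1 counts was not tested.

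**Figure D1:**
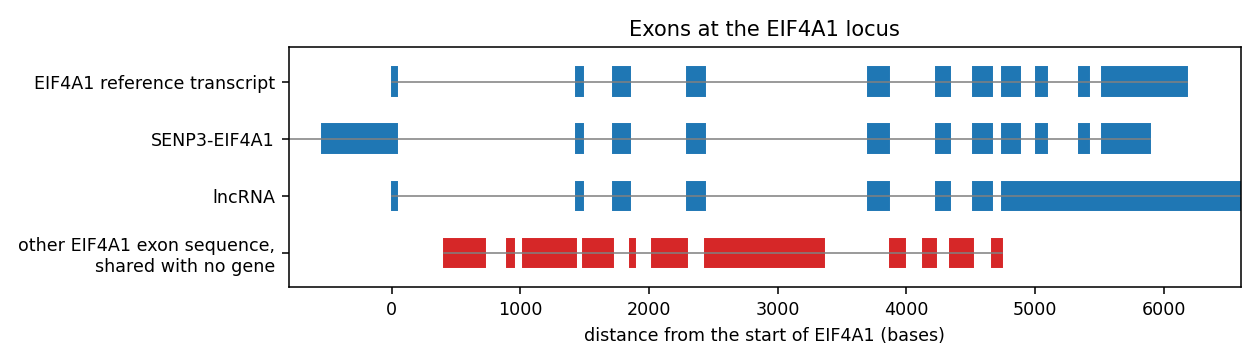
Exons at the EIF4A1 locus along the distance in bases from the gene start, for the EIF4A1 reference transcript, the readthrough gene SENP3-EIF4A1, an overlapping long non-coding RNA (lncRNA) and the EIF4A1 exon sequence of other transcripts that no gene shares. Every exon of the reference transcript has a counterpart in an overlapping gene, and the 2733 unshared bases (red) lie between those exons.

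Library totals ran from 15353317 to 46018900 counts. EIF4A1 nevertheless held only 34 to 479 counts per library, whereas EIF4A2 held 5161 to 49931. The row of SENP3-EIF4A1 held 1 to 40 counts. EIF4A1 values therefore carry more counting error than those of the other members, and they describe the reads assigned to that row rather than the whole EIF4A1 mRNA. Where the mRNAs are counted together below and in the figures, EIF4A1 stands for that row. Reads carry no molecular identifiers. CNOT1 siRNA lowered CNOT1 in input RNA from 628 to 711 CPM to 36.8 to 41.4 CPM, where CPM is the count scaled to the TMM-adjusted library total. The polysomal libraries of replicate 3 went against their labels: the library labelled control siRNA held 28.3 CPM of CNOT1 and the library labelled CNOT1 siRNA 631. Labels were kept, and gradient results are given with and without this pair. The labelled cell line matched its markers in part, since NEFL, NEFM and VIM had medians of 421 to 2870 CPM, LHX1 4.92 CPM and PAX2 0.307 CPM. Of the markers of other cell types, COL1A1 had a median of 5.89 CPM, above LHX1 and PAX2, and ALB, HBA1 and PTPRC had medians of 0 to 0.0752 CPM.

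Per kilobase of merged exon, EIF4A2 was the most abundant row of the 4 in every group and EIF4A1 the least. In RIP total RNA the levels were 63.8 ± 4.21 CPM per kb for EIF4A2, 27 ± 4.46 for EIF4A3, 15 ± 0.508 for DDX6 and 1.65 ± 0.137 for EIF4A1 (SD, n = 3). The ranges of neighbours in this order did not overlap. In the 3 IPs DDX6 stood above EIF4A3, at 23.1 ± 2.32 against 13.9 ± 1.5 CPM per kb in the eIF4A1 IP. Per kilobase of reference transcript the order was kept, but in the eIF4A2 IP the ranges of DDX6 and EIF4A3 overlapped (35 ± 1.1 and 33 ± 5.64). In subpolysomal RNA DDX6 and EIF4A3 overlapped (9.99 ± 2.36 and 9.06 ± 0.664 CPM per kb with control siRNA, n = 4), and their order turned when the reference transcript length was used instead (18.7 ± 4.41 and 20.8 ± 1.52). In polysomal RNA EIF4A2 and EIF4A3 overlapped (41.2 ± 0.964 and 33.4 ± 5.02 CPM per kb with control siRNA), but not per kilobase of reference transcript (134 ± 3.13 and 76.5 ± 11.5). Per kilobase of exon sequence shared with no gene, EIF4A1 stayed lowest, at 3.15 ± 0.261 CPM per kb in RIP total RNA. The reference mRNAs themselves differ in build, with 5′UTRs of 17 nt in EIF4A1, 34 in EIF4A2, 167 in EIF4A3 and 334 in DDX6, and 3′UTRs of 520, 628, 1121 and 4342 nt.

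The first question was whether each helicase recovers its own mRNA. The EIF4A2 mRNA was 2.42-fold higher in the eIF4A2 IP than in total RNA and the DDX6 mRNA 2.99-fold higher in the DDX6 IP. The EIF4A1 row, by contrast, was at 0.209 of its total RNA level in the eIF4A1 IP and at 0.25 in the DDX6 IP. The mRNA of EIF4A3, whose protein was not precipitated, was lower in all 3 IPs. These values are recovery relative to total RNA and not a change of level in the cells. Since each library pools many cells, fewer cells carrying an mRNA and less mRNA per cell cannot be told apart where siRNAs are compared.

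EIF4A2 held 377, 375 and 421 CPM in the total RNA libraries and 851, 852 and 1133 CPM in the eIF4A2 IP. The eIF4A1 IP gave 434, 469 and 462 CPM, and the DDX6 IP 488, 488 and 474. All eIF4A2 IP libraries lay above every other library, with replicate 3 the highest, while the eIF4A1 and DDX6 IPs sat just above total RNA without overlap. Here and below, overlap describes only the libraries shown, and the share of all genes without overlap was not counted. The log2 fold change over total RNA was 1.27 (SE 0.15, FDR 1.36e-05, edgeR) in the eIF4A2 IP. It was 0.22 (95% interval -0.09 to 0.53, FDR 0.214, edgeR) in the eIF4A1 IP and 0.31 (-0.00 to 0.62, FDR 0.0946, edgeR) in the DDX6 IP. Replicate numbers paired the RIP libraries, although the description of total RNA replicate 3 in the labels gives it the number 2 against its title, which was used, and with the replicate block the last of these passed the threshold (0.31, FDR 0.0368, edgeR).

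DDX6 held 166, 177 and 173 CPM in total RNA. The DDX6 IP gave 615, 404 and 522 CPM, the eIF4A1 IP 251, 249 and 296, and the eIF4A2 IP 219, 218 and 207. The DDX6 IP libraries were the highest, all IP libraries lay above total RNA, and the eIF4A2 IP was nearest to it. The log2 fold change was 1.58 in the DDX6 IP (SE 0.16, FDR 1.54e-05, edgeR) and 0.63 in the eIF4A1 IP (SE 0.15, FDR 0.00414, edgeR). In the eIF4A2 IP it was 0.32 (95% interval -0.01 to 0.65, FDR 0.0993, edgeR), and in a fit of only the compared libraries this value passed the threshold (0.38, FDR 0.0303, edgeR).

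The EIF4A1 row held 352, 258 and 242 counts in total RNA (9.26, 7.84 and 8.69 CPM). The eIF4A1 IP gave 82, 102 and 53 counts (1.87, 2.19 and 1.31 CPM) and the DDX6 IP 107, 68 and 106 counts (2.42, 1.69 and 2.32 CPM). In the eIF4A2 IP there were 154, 138 and 479 counts (5.17, 4.18 and 10.9 CPM). The eIF4A1 and DDX6 IPs lay below every total RNA library, while the eIF4A2 IP overlapped total RNA because its replicate 3 was above all of them. The log2 fold changes were -2.26 in the eIF4A1 IP (SE 0.32, FDR 7.83e-05, edgeR), -2.00 in the DDX6 IP (SE 0.32, FDR 0.000268, edgeR) and -0.34 in the eIF4A2 IP (95% interval -0.99 to 0.30, FDR 0.359, edgeR). Without eIF4A2 IP replicate 3 the last value was -0.88 (FDR 0.00665, edgeR). With the counts of SENP3-EIF4A1 added to the row, the 3 values were -2.08, -1.83 and -0.32.

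EIF4A3 held 160, 180 and 129 CPM in total RNA, 74.7, 76 and 90.3 in the eIF4A1 IP, 72.3, 78.4 and 99.4 in the eIF4A2 IP and 60.7, 61.8 and 72 in the DDX6 IP. Every IP library lay below every total RNA library. It fell by 0.96 (SE 0.16, FDR 0.000316), 0.90 (SE 0.16, FDR 0.000499) and 1.27 (SE 0.17, FDR 7.15e-05) on the log2 scale in the eIF4A1, eIF4A2 and DDX6 IPs (edgeR). Within a library, the count of EIF4A2 over that of EIF4A3, a quotient free of scaling factors, was 2.57 ± 0.619 in total RNA, 5.7 ± 0.538 in the eIF4A1 IP, 11.3 ± 0.454 in the eIF4A2 IP and 7.51 ± 0.803 in the DDX6 IP (SD, n = 3).

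Of the 4 mRNAs, 3 were called at an FDR below 0.05 in the eIF4A1 IP, 2 in the eIF4A2 IP and 3 in the DDX6 IP. These shares stand beside a background of 52.6%, 50.3% and 46% of all 17474 genes tested, so a call against total RNA was common. The sizes stood further out: EIF4A2 in the eIF4A2 IP lay at percentile 93.1 of all genes by log2 fold change, DDX6 in the DDX6 IP at 98.6, and EIF4A1 in the eIF4A1 IP at 1.67. The low EIF4A1 position was not particular to its own IP, since it lay at percentile 2.05 in the DDX6 IP. The 3 comparisons share their total RNA libraries.

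**Figure D2:**
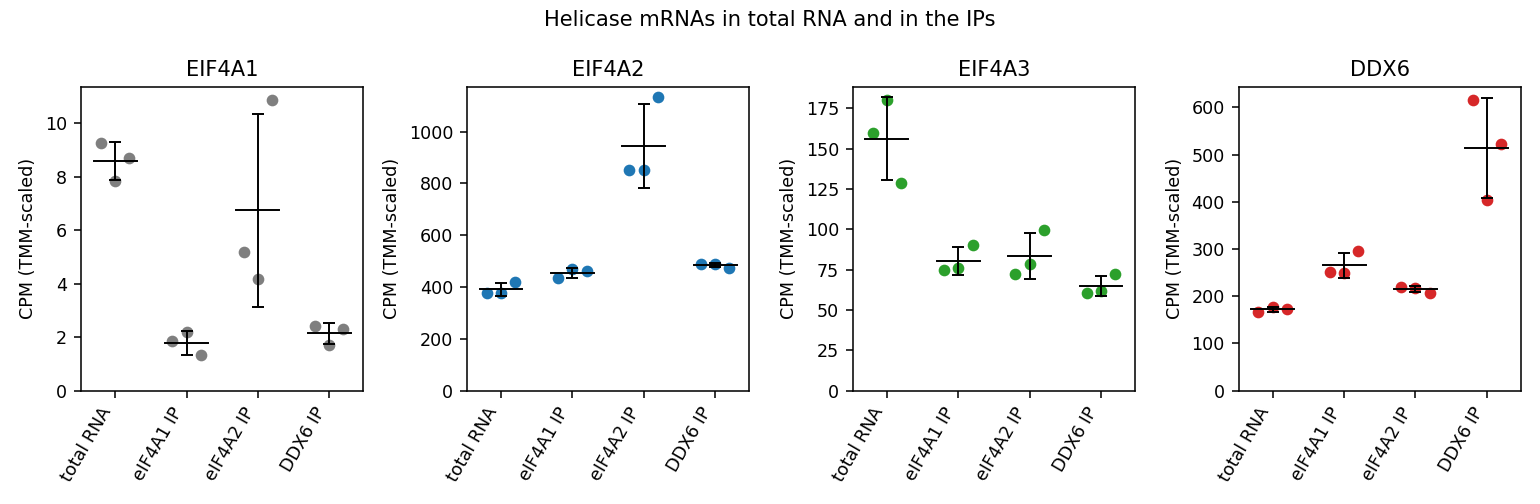
CPM (TMM-scaled) of each mRNA by library in total RNA and in the eIF4A1, eIF4A2 and DDX6 IPs. Points are libraries, horizontal lines means and bars SD (n = 3), and each y axis starts at 0. EIF4A2 peaks in the eIF4A2 IP (851 to 1133 CPM) and DDX6 in the DDX6 IP (404 to 615 CPM), while EIF4A1 is below total RNA in the eIF4A1 and DDX6 IPs.

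**Figure D3:**
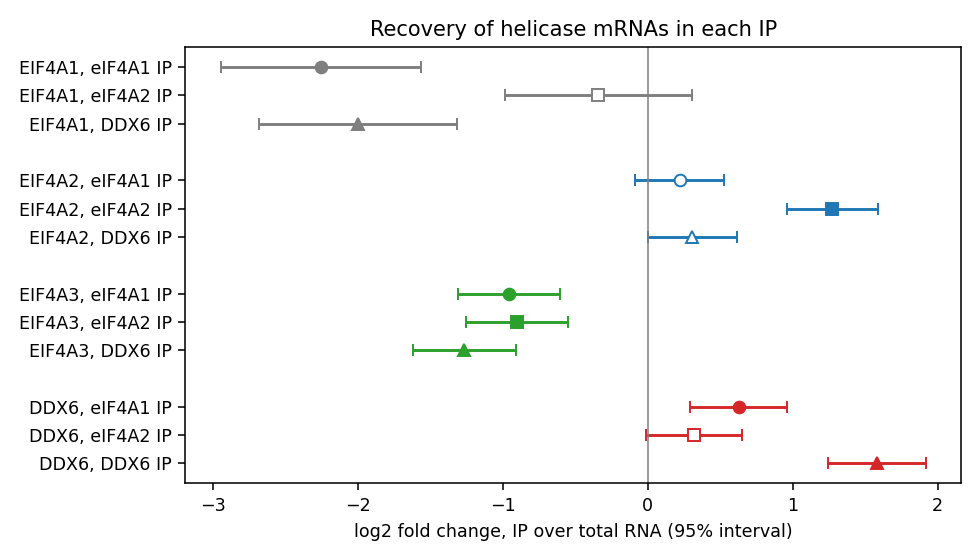
The log2 fold change of each mRNA in each IP over total RNA, with 95% intervals from the edgeR fit. Filled symbols passed an FDR of 0.05 and open symbols did not, and circles, squares and triangles stand for the eIF4A1, eIF4A2 and DDX6 IPs. The highest values are DDX6 in the DDX6 IP (1.58) and EIF4A2 in the eIF4A2 IP (1.27), and the lowest is EIF4A1 in the eIF4A1 IP (-2.26).

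The IPs were then tested against each other, since calls against total RNA do not test a difference between antibodies. EIF4A2 was 2.08-fold higher in the eIF4A2 IP than in the eIF4A1 IP and 1.95-fold higher than in the DDX6 IP. In the IP of its own protein DDX6 was 1.94-fold above its eIF4A1 IP level, and in the eIF4A2 IP it stood at 0.418 of its DDX6 IP level. The EIF4A1 row was 3.77-fold higher in the eIF4A2 IP than in the IP of its own protein.

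Between the eIF4A2 and eIF4A1 IPs, EIF4A1 (log2 1.91, SE 0.32, FDR 0.012) and EIF4A2 (log2 1.05, SE 0.14, FDR 0.00477) were called by edgeR, 2 of 4 mRNAs beside 1.06% of all genes. DDX6 (log2 -0.31, 95% interval -0.64 to 0.03) and EIF4A3 (log2 0.05, -0.30 to 0.41) were not. Both calls were lost in a fit of only these 6 libraries (FDR 0.0963 and 0.0779, edgeR), and the EIF4A1 call also without eIF4A1 IP replicate 3 (1.74, FDR 0.0697, edgeR). With the replicate block both were kept (1.84, FDR 0.0028, and 1.05, FDR 0.000633, edgeR), and the genes called over all rose from 185 to 2766.

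In the eIF4A2 IP against the DDX6 IP, 3 of the 4 mRNAs were called beside 21.1% of all genes. EIF4A1 (log2 1.66, SE 0.32, FDR 0.00468) and EIF4A2 (log2 0.97, SE 0.14, FDR 0.00223) were higher in the eIF4A2 IP, and DDX6 was lower (log2 -1.26, SE 0.16, FDR 0.0016, edgeR). EIF4A3 differed by 0.36 (95% interval 0.01 to 0.71, FDR 0.128, edgeR). With the block the same comparison called 7074 in place of 3685 genes, among them the 3 mRNAs.

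Between the DDX6 and eIF4A1 IPs, DDX6 was the single call among the 4 (log2 0.95, SE 0.15, FDR 0.033, edgeR), beside 0.0916% of all genes. It was lost in a fit of the 6 compared libraries (FDR 0.367, edgeR) and when any library of these groups except DDX6 IP replicate 2 was left out (FDR 0.0613 to 0.278, edgeR). With the replicate block it was kept (0.95, FDR 0.00623, edgeR), and the genes called rose from 16 to 1730. EIF4A1 (0.26, 95% interval -0.44 to 0.96), EIF4A2 (0.09, -0.22 to 0.40) and EIF4A3 (-0.31, -0.66 to 0.04) were not called.

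The mRNAs of partner proteins were counted in the same fits, from lists drawn up by textbook function. Earlier results of these data were known when the lists were drawn up, so these counts are a description and not an independent test. Over all genes 26.1% rose and 26.5% fell in the eIF4A1 IP, 24.5% and 25.8% in the eIF4A2 IP, and 22.7% and 23.3% in the DDX6 IP, and the counts below stand beside these shares. Of 11 mRNAs of DDX6 partners, 7 rose and 2 fell in the DDX6 IP, and their median log2 fold change was 0.65 against 0.01 over all genes. PATL1, a decapping activator (1.39, FDR 2.11e-05), DCP1A, a decapping cofactor (1.46, FDR 0.000161), and LSM14B, an RNP component (0.70, FDR 0.000387, edgeR), had the lowest FDR in this list. Against the eIF4A1 IP, PATL1 (1.31, FDR 0.0108), DCP1B (1.74, FDR 0.0127) and DCP1A (1.37, FDR 0.027) were the 3 of 11 that were called (edgeR), all higher, beside 0.0801% of all genes higher. In the eIF4A1 and eIF4A2 IPs 2 of the 11 rose each, and 5 and 3 fell.

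Of 10 mRNAs of eIF4F partners, 1 rose and 5 fell in the eIF4A1 IP, with a median of -0.58 against 0.04 over all genes, and 2 rose and 5 fell in the eIF4A2 IP (median -0.58 against 0.01). EIF4H, which encodes a stimulator of eIF4A activity, fell by 1.13 (FDR 4.68e-05) and by 1.22 (FDR 2.42e-05, edgeR) in these IPs. PDCD4, which encodes an inhibitor of eIF4A, fell by 0.89 (FDR 0.000603) and 1.04 (FDR 0.000195, edgeR). In the DDX6 IP 3 eIF4F partners rose and 2 fell. Among 8 partners of EIF4A3 in the exon junction complex, 0 rose and 5 fell in each eIF4A IP, with medians of -0.67 and -0.88, and 1 rose and 2 fell in the DDX6 IP (median -0.17). ALYREF, an mRNA export factor, fell by 0.92 (FDR 0.00205) and by 1.47 (FDR 6.73e-05, edgeR) in the eIF4A1 and eIF4A2 IPs.

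The 4 rows differed in direction along the gradients. With control siRNA EIF4A3 was 3.69-fold and DDX6 1.58-fold higher in polysomal than in subpolysomal RNA, whereas EIF4A2 was at 0.39 and the EIF4A1 row at 0.196 of the subpolysomal level. Each library was scaled to its own total, so these are levels relative to the other mRNAs of a fraction. They do not give the share of an mRNA found in each fraction. Mean EIF4A2 was 294 CPM in input RNA, beside 648 in subpolysomal and 253 in polysomal RNA.

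EIF4A2 held 717, 738, 526 and 610 CPM in subpolysomal and 250.5, 259, 245.5 and 255.6 CPM in polysomal RNA with control siRNA. EIF4A3 went from 51.7, 57.5, 48.3 and 52 CPM to 175, 196, 233 and 168 CPM. DDX6 went from 127, 147, 91.1 and 93.3 CPM to 168, 188, 181 and 186 CPM. For none of these mRNAs did the fractions overlap, but the share of all genes without overlap was not counted. Subpolysomal libraries 1 and 2 were higher than 3 and 4 in EIF4A2 and DDX6. The EIF4A1 row held 13.6, 11.2, 15.4 and 12.4 CPM in subpolysomal and 2.82, 1.66, 2.62 and 3.18 CPM in polysomal RNA, again without overlap.

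The log2 fold changes between the fractions were -2.35 for EIF4A1 (SE 0.21, FDR 4.01e-10), -1.36 for EIF4A2 (SE 0.11, FDR 5.73e-11), 1.88 for EIF4A3 (SE 0.13, FDR 8.27e-12) and 0.66 for DDX6 (SE 0.14, FDR 0.000253, edgeR). All 4 were called beside a background of 71.7%. By log2 fold change EIF4A3 stood at percentile 97.4 of all genes, DDX6 at 72.8, EIF4A2 at 18.6 and EIF4A1 at 7.55. Without the replicate 3 polysomal pair the values were -2.34, -1.33, 1.79 and 0.67, all 4 called beside 72.1%. The count of EIF4A2 over that of EIF4A3 within a library, free of scaling factors, went from 12.3 ± 1.29 in subpolysomal to 1.33 ± 0.202 in polysomal RNA and was 1.82 ± 0.124 in input RNA (SD, n = 4).

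With CNOT1 siRNA the same 3 eIF4A rows were called and DDX6 was not. EIF4A2 held 530, 553, 391 and 453 CPM in subpolysomal and 262, 237, 254 and 260 CPM in polysomal RNA (log2 -0.93, SE 0.11, FDR 4.51e-08). EIF4A3 held 76.2, 79.95, 62.8 and 56.6 CPM and 227, 260.1, 175 and 212 CPM (log2 1.67, SE 0.13, FDR 8.65e-11, edgeR). Both mRNAs were separated between the fractions in every library. DDX6 held 158, 161, 116 and 141 CPM and 161, 139, 225 and 150.2 CPM, which overlapped (log2 0.23, 95% interval -0.06 to 0.53, FDR 0.154, edgeR). The EIF4A1 row held 9.902, 9.15, 9.63 and 11.7 CPM and 2.395, 1.49, 3.35 and 2.52 CPM (log2 -2.05, SE 0.21, FDR 5.92e-09, edgeR). Of the 4, 3 were called beside 68.8% of all genes, and without the replicate 3 pair again 3 beside 71.9%, when DDX6 stood at 0.07 (95% interval -0.20 to 0.34).

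**Figure D4:**
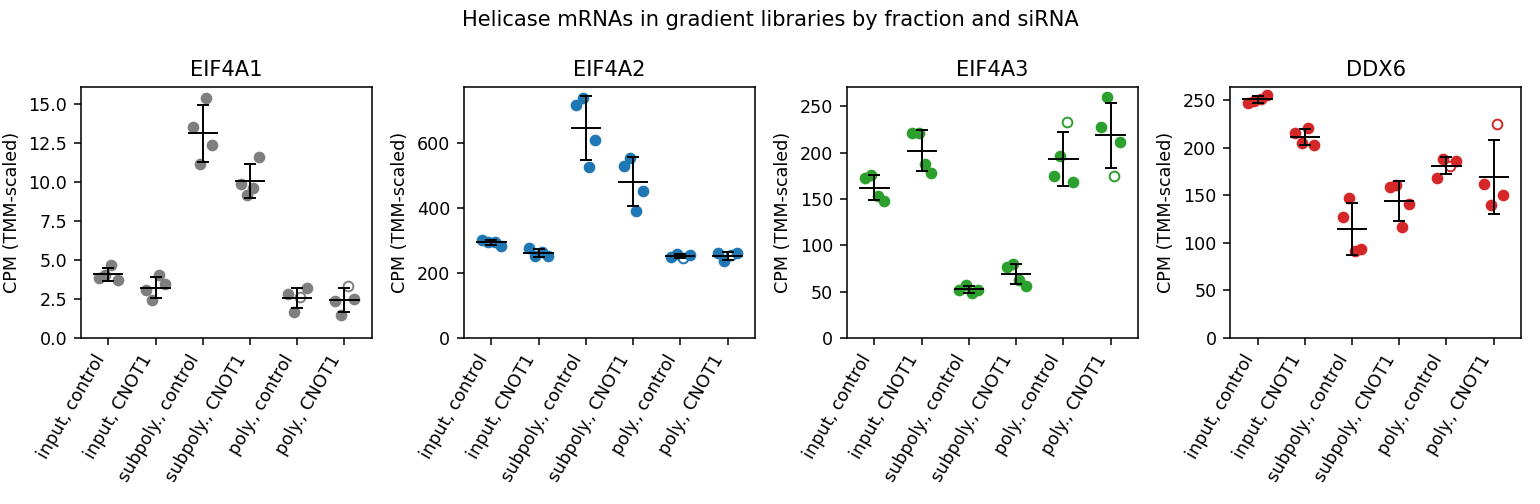
CPM (TMM-scaled) of each mRNA by library in input, subpolysomal and polysomal RNA with control or CNOT1 siRNA. Points are libraries, horizontal lines means and bars SD (n = 4), each y axis starts at 0, and open points are the polysomal libraries of replicate 3, whose CNOT1 levels went against their labels. EIF4A1 and EIF4A2 are highest in subpolysomal RNA, and EIF4A3 is lowest there.

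In the control gradients 34.8% of all genes were higher and 37% lower in polysomal RNA. Of the eIF4F partners 8 were higher and 2 lower in polysomal RNA (median 0.85 against -0.02 over all genes), among them EIF4H (1.43, FDR 2.19e-13) and EIF4G2 (1.48, FDR 3.92e-12), a scaffold related to eIF4G, while EIF4B, a cofactor of eIF4A, was lower (-1.28, FDR 5.19e-11, edgeR). Of the 11 DDX6 partners 5 were higher, 1 lower and 5 not called, and of the 8 exon junction complex partners 6 were higher and 1 lower, with MAGOH, a core subunit, at 1.54 (FDR 1.14e-11, edgeR). Without the replicate 3 polysomal pair the counts were 8 and 2, 6 and 3, and 5 and 1 in these lists, beside 33.7% higher and 38.4% lower of all genes. With CNOT1 siRNA 7, 6 and 6 of the lists were higher and 1 of each was lower, beside 34.1% and 34.7% of all genes.

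To ask whether loss of CNOT1 changes these mRNAs, the siRNAs were compared within each kind of RNA. In input RNA 0 of the 4 were called, beside 29% of all genes. EIF4A3 held 173, 176, 153 and 148 CPM with control siRNA and 221, 221, 188 and 178 CPM with CNOT1 siRNA, without overlap (log2 0.32, SE 0.13, FDR 0.0667, edgeR). DDX6 held 247, 249, 251 and 255 CPM and then 215, 205, 220 and 202 CPM, all lower (log2 -0.25, SE 0.14, FDR 0.181, edgeR). EIF4A2 held 303, 294, 296 and 284 CPM and then 277, 251, 264 and 252 CPM, also all lower (log2 -0.17, SE 0.11, FDR 0.215, edgeR). The EIF4A1 row overlapped, from 3.86, 4.07, 4.68 and 3.73 CPM to 3.06, 2.42, 4.03 and 3.45 CPM.

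In input RNA same-numbered libraries of the siRNAs deviated together (r 0.105 to 0.191), and with the replicate block over all 24 libraries EIF4A3 passed the threshold (0.31, FDR 0.0344, edgeR). In a fit of the 8 input libraries alone EIF4A3 (0.33, FDR 0.00105), DDX6 (-0.23, FDR 0.000786) and EIF4A2 (-0.16, FDR 0.012, edgeR) passed, 3 of 4 beside 61% of all genes, so the share of calls was near the background. With the block added to that fit all 4 passed, beside 66.3%, with EIF4A1 at -0.32 (FDR 0.0257, edgeR). Without the replicate 3 polysomal pair only EIF4A3 did (0.31, FDR 0.0215, edgeR), 1 of 4 beside 40.6%.

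In subpolysomal RNA EIF4A2 fell by 0.43 on the log2 scale (SE 0.11, FDR 0.00389) and EIF4A3 rose by 0.40 (SE 0.13, FDR 0.0236, edgeR), 2 of 4 beside 32.2% of all genes. As groups the libraries of both overlapped, but replicate numbers paired the subpolysomal libraries of the siRNAs (r 0.422 to 0.578), and within a number the direction was shared. EIF4A2 with CNOT1 siRNA was at 0.74, 0.749, 0.744 and 0.742 of its control level in replicates 1 to 4. EIF4A3 was at 1.47, 1.39, 1.3 and 1.09 of control and DDX6 at 1.25, 1.09, 1.27 and 1.51, so that both were higher in all 4 pairs, and EIF4A1 was at 0.625 to 0.938. DDX6 differed by 0.33 (95% interval 0.03 to 0.63, FDR 0.0802, edgeR) and EIF4A1 by -0.38 (-0.78 to 0.01, FDR 0.128, edgeR). The EIF4A2 call was lost in a fit of the compared subpolysomal libraries alone (-0.39, FDR 0.0528, edgeR, beside 27.8% of all genes called), and the EIF4A3 call without control siRNA replicate 1 or 3 or CNOT1 siRNA replicate 1 or 2 (FDR 0.0515 to 0.0894, edgeR). In the fit of these 8 libraries with the replicate block all 4 were called: EIF4A2 at -0.40 (FDR 0.000241), EIF4A3 at 0.42 (FDR 0.000163), DDX6 at 0.38 (FDR 0.000291) and EIF4A1 at -0.35 (FDR 0.0102, edgeR), beside 58.2% of all genes. In the fit of all 24 libraries DDX6 was called without control siRNA replicate 2 (0.47, FDR 0.0156) or CNOT1 siRNA replicate 3 (0.42, FDR 0.0386, edgeR). Without the replicate 3 polysomal pair DDX6 was called as well (0.33, FDR 0.0313, edgeR), 3 of 4 beside 42%.

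In polysomal RNA 0 of the 4 were called, beside 0% of all genes: edgeR called 0 of 16776 (1123 had an unadjusted p below 0.05), as did DESeq2 with 0. The log2 differences were 0.18 for EIF4A3 (95% interval -0.09 to 0.45), -0.10 for DDX6 (-0.39 to 0.20), -0.08 for EIF4A1 (-0.53 to 0.37) and 0.00 for EIF4A2 (-0.22 to 0.22). Without the replicate 3 pair EIF4A3 was higher (0.37, SE 0.12, FDR 0.0231, edgeR), 1 of 4 beside 31.7%, and DDX6 stood at -0.27 (FDR 0.152, edgeR). The CNOT1 siRNA library of replicate 3 held the highest DDX6 value of its group (225 CPM against 139 to 161) and the lowest EIF4A3 value (175 CPM against 212 to 260.1).

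Whether CNOT1 siRNA shifted the mRNAs between fractions was tested as the effect in polysomal minus that in subpolysomal RNA. None of the 4 was called, beside 5.66% of all genes. The shift was 0.43 for EIF4A2 (SE 0.15, FDR 0.0913), -0.43 for DDX6 (SE 0.20, FDR 0.223), 0.30 for EIF4A1 (SE 0.29, FDR 0.589) and -0.22 for EIF4A3 (SE 0.18, FDR 0.535, edgeR). Without the replicate 3 pair DDX6 was called (-0.60, SE 0.18, FDR 0.0272, edgeR), 1 of 4 beside 17.5%, and EIF4A2 stood at 0.41 (FDR 0.073, edgeR). EIF4A2 was called without control siRNA subpolysomal replicate 3 alone (0.52, FDR 0.0308, edgeR).

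With the gradient as the replicate, the log2 polysomal/subpolysomal ratio was taken per gradient, minus the median of all genes. EIF4A2 stood at -1.485, -1.47, -1.10 and -1.14 with control siRNA and at -1.04, -1.24, -0.56 and -0.79 with CNOT1 siRNA. DDX6 stood at 0.44, 0.40, 0.985 and 1.10 and then at 0.01, -0.22, 1.01 and 0.10. As groups the siRNAs overlapped for both. Within a replicate number EIF4A2 was higher with CNOT1 siRNA in each gradient, and DDX6 was lower in all but gradient 3. The permutation test did not use this pairing. The difference was 0.39 for EIF4A2 (exact permutation p = 0.114), -0.505 for DDX6 (exact permutation p = 0.171), -0.24 for EIF4A3 (exact permutation p = 0.143) and 0.25 for EIF4A1 (exact permutation p = 0.4), two-sided, where 0.029 is the smallest p that 4 against 4 gradients allow. Without gradient 3 the DDX6 ratios no longer overlapped (difference -0.68, exact permutation p = 0.1, the smallest that 3 against 3 allow), and EIF4A1 stood at -0.01.

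**Figure D5:**
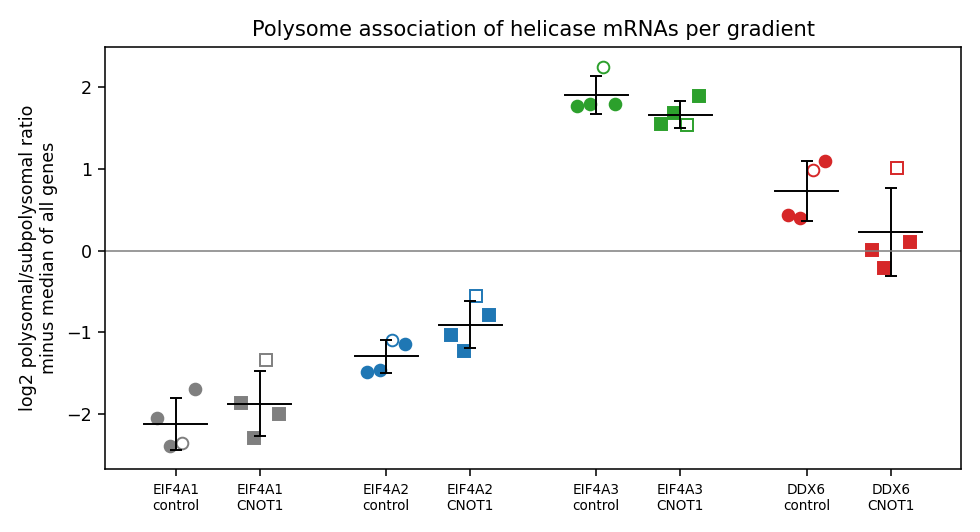
The log2 polysomal/subpolysomal ratio of each mRNA per gradient, minus the median of all genes, with control siRNA (circles) and CNOT1 siRNA (squares). A gradient here joins the fractions of the same siRNA and replicate number. Horizontal lines are means and bars SD (n = 4), and open symbols are gradient 3. EIF4A1 and EIF4A2 lie below 0 in all 8 gradients and EIF4A3 above 0 in all 8, while DDX6 with CNOT1 siRNA ranges from -0.22 to 1.01.

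Among the partner mRNAs, EIF4B fell by 1.33 (FDR 1.92e-08) in subpolysomal RNA with CNOT1 siRNA, and it was the single partner called for a shift between fractions (1.30, FDR 2.99e-05, edgeR, beside 5.66% of all genes). Of the eIF4F, DDX6 and exon junction complex partners, 0, 1 and 1 rose and 3, 2 and 4 fell in input RNA (13.4% and 15.6% of all genes), and 1, 0 and 0 rose and 2, 1 and 4 fell in subpolysomal RNA (13% and 19.1% of all genes). In polysomal RNA 0 were called, and without the replicate 3 pair 1, 4 and 1 rose and 2, 2 and 3 fell (17.1% and 14.6% of all genes). For a shift, 2, 2 and 0 were then higher and 3, 1 and 0 lower (9.99% and 7.51% of all genes). The DDX6 partners include CNOT1, the target of the siRNA. Its own fall is counted in input RNA (log2 -4.08) and, without the pair, in polysomal RNA (-4.10). It is also the DDX6 partner counted as lower for a shift (-2.31).

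Treatment with siRNAs against TNRC6A and TNRC6B left the 4 mRNAs without a call, beside 0% of all genes. EdgeR called 0 of 14064 genes (289 had an unadjusted p below 0.05), 8 were called with DESeq2 and 763 by edgeR with the replicate block, none of them a member. No partner mRNA was called by edgeR. TNRC6A differed by -1.80 and TNRC6B by -1.68 on the log2 scale, and this fit called neither of these siRNA targets. EIF4A2 held 197 and 322.5 CPM with control siRNA and 217 and 349 CPM with TNRC6A/B siRNA, so that the libraries of a group differed more than the groups. Within each replicate number EIF4A2 was higher with TNRC6A/B siRNA. EIF4A3 held 225 and 151 CPM and then 176 and 146 CPM, and DDX6 157 and 203 CPM and then 171 and 179.5 CPM. The EIF4A1 row held 104 and 99 counts and then 56 and 80. The log2 differences were -0.54 for EIF4A1 (95% interval -1.81 to 0.73), 0.12 for EIF4A2 (-0.81 to 1.06), -0.22 for EIF4A3 (-0.92 to 0.47) and -0.04 for DDX6 (-0.59 to 0.52), each with an FDR of 1 (edgeR).

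The profile of each mRNA over the 12 groups was set against those of 9687 genes with at least 10 CPM, as the root mean square difference of centred log2 CPM. The genes nearest to EIF4A2 were AP1G2 (0.15) and ZNF721 (0.16), those nearest to EIF4A3 were SLC38A10 (0.11) and NFE2L3 (0.14), and those nearest to DDX6 were CELF2 and ZBTB12 (0.25 each). The members lay far from one another, with 1.05 between EIF4A2 and EIF4A3, 0.76 between EIF4A2 and DDX6 and 0.71 between EIF4A3 and DDX6. The EIF4A1 row was below the level needed for this measure.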

How the data were processed

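The deposited counts are unnormalised integers per gene symbol and library, which the authors made from stranded TruSeq libraries. The submitters' processing notes name bcl2fastq 2.0, TopHat2, HTSeq and hg19, and HTSeq's strand and overlap options are not given in the sources used here. A deposited table of the authors' own IP tests was not used. The 4 mRNAs, partner lists and tests were chosen with earlier results of these data known.

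Counts were fitted with edgeR 4.0.16 in R 4.3.3 (TMM factors, filterByExpr, quasi-likelihood F-tests), 1 fit per experiment over 12, 24 and 4 libraries. All 4 mRNAs passed the filter in each fit, which kept 17474, 16776 and 14064 genes. Tests are two-sided. Calls needed an FDR (Benjamini-Hochberg, across every gene fitted) below 0.05. CPM, scaled by the TMM-adjusted library total, is given as mean ± SD, and SE is the log2 fold change over the square root of F. Gradient ratios joined fractions by replicate number and used a pseudocount of 0.5 CPM and scipy 1.17.1 exact permutation tests. Nothing in the labels says that replicates came from separate cultures, so p-values measure the spread between these libraries only, and no pair of libraries agreed within sampling noise. Same-numbered RIP libraries deviated together (r 0.114 to 0.563 over all 18 pairs), so the block was used there beside the main fit. So did those of the siRNAs in input (r 0.105 to 0.191) and subpolysomal RNA (r 0.422 to 0.578), but not in polysomal RNA (r -0.472 to 0.0695), so the gradient permutation test was unpaired. The value of -0.472 belongs to the polysomal pair of replicate 3, whose CNOT1 counts went against their labels. The named genes are the 4 mRNAs, CNOT1, TNRC6A, TNRC6B, rows of the same loci, the 2 genes nearest in profile and at most 3 called partners per list and comparison. Leaving out each library, DESeq2 1.42.0, RLE factors, no filter, the replicate block and fits of only the compared libraries were alternatives. Settings chosen after seeing the data were the reference transcript length and the replicate block without the polysomal pair or in only the compared input or subpolysomal libraries.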

Additional observations from a re-analysis of the deposited data

Results flagged for a closer look

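The EIF4A3 log2 polysomal/subpolysomal ratio, minus the median of all genes, was 2.257 in gradient 3 with control siRNA, and the other control gradients lay between 1.778 and 1.803. Its gap to the nearest gradient was 0.948 of the range of the group, above Dixon's 95% critical value for 4 samples. This gradient includes the polysomal library whose CNOT1 count went against its label. Chance flags about 1 in 20 groups, and 32 groups of 4 were examined.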

How the results depend on the processing

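All calls of the 4 mRNAs against total RNA and between gradient fractions kept their direction and their side of the threshold under each alternative run, and the values not called that passed it are given in the report. With the replicate block 1 RIP call changed, that of EIF4A2 in the DDX6 IP (0.31). In fits of only the compared libraries calls were lost between IPs for EIF4A1 (1.92), EIF4A2 (1.06) and DDX6 (0.95) and in subpolysomal RNA for EIF4A2 (-0.39). They were gained in input RNA for EIF4A2 (-0.16), EIF4A3 (0.33) and DDX6 (-0.23).

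Across all gradient groups same-numbered libraries had a median r of 0.0821 over 60 pairs, although input and subpolysomal libraries were paired between siRNAs. With the replicate block EIF4A3 in input RNA passed the threshold (0.31), as it did with DESeq2 (0.32). With the block in only the compared libraries, chosen after seeing the data, EIF4A1 (-0.32), EIF4A2 (-0.16), EIF4A3 (0.33) and DDX6 (-0.24) passed in input RNA, as did EIF4A1 (-0.35) and DDX6 (0.38) in subpolysomal RNA. The TNRC6 experiment has only 2 numbers, and the block there gave 763 called genes in place of 0, with EIF4A2 at 0.13. Without the polysomal pair EIF4A3 in input (0.31) and polysomal RNA (0.37), DDX6 in subpolysomal RNA (0.33) and the DDX6 shift (-0.60) passed. With the block added, chosen after seeing the data, these were 0.31, 0.37, 0.34 and -0.60, and EIF4A1 in input (-0.35) and subpolysomal RNA (-0.37) and the EIF4A2 shift (0.41) passed too. Without a filter on low counts DDX6 passed in subpolysomal RNA (0.37).

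Values near 0 turned sign: EIF4A2 in polysomal RNA was -0.037 with RLE factors, -0.0369 with DESeq2, -0.0515 without the filter, -0.0007 with the compared libraries only, -0.0133 without the pair and -0.0129 with the block added. DDX6 under TNRC6A/B siRNA was 0.0259 without the filter, and the EIF4A1 ratio was -0.0067 without gradient 3. The cause was not tested.

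Leaving out 1 library at a time gave 0.80 to 1.10 for DDX6 between the DDX6 and eIF4A1 IPs. Between the eIF4A2 and eIF4A1 IPs it gave 1.37 to 2.16 for EIF4A1 and -0.094 to 0.14 for EIF4A3. In subpolysomal RNA it gave 0.32 to 0.48 for EIF4A3 and 0.23 to 0.47 for DDX6, and the EIF4A2 shift ranged from 0.34 to 0.52. In polysomal RNA it gave -0.0142 to 0.0324 for EIF4A2 and -0.27 to 0.093 for EIF4A1. Under TNRC6A/B siRNA it gave -0.25 to 0.58 for EIF4A2, -0.43 to 0.0819 for EIF4A3 and -0.22 to 0.21 for DDX6, where a lone library is assumed to vary like the other group. The EIF4A1 ratio ranged from -0.0067 to 0.43.

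Over all settings the genes called ranged from 24 to 2766 between the eIF4A2 and eIF4A1 IPs, 1487 to 7074 between the eIF4A2 and DDX6 IPs, 0 to 1730 between the DDX6 and eIF4A1 IPs, 2942 to 10407 in input RNA, 4341 to 9215 in subpolysomal RNA 157 to 3905 for the shift and 0 to 763 under TNRC6A/B siRNA. The EIF4A1 row held 34 to 479 counts.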
